A study of Homo sapiens with 8 samples.

Results

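The cytosolic tRNA synthetases and the ATF4 amino acid response were followed on 8 Affymetrix arrays of ALL-SIL cells, a line established from T-cell leukemia in which the homeobox factor TLX1 is active. The gene group was a list of 39 genes, 17 cytosolic tRNA synthetases and 22 others (ATF4 and genes known as its targets), chosen by name. Of these, 37 had a probe set annotated to that gene alone, out of 19775 such genes on the array. MARS1 and QARS1 had only probe sets shared with other genes and were left out. VLDLR and STC2 stayed at or below the array median on all 8 arrays and were too dim to test. The remaining 35 genes, 15 synthetases and 20 others, were tested among 13102 genes. Each of the 35 was represented by the probe set with its highest mean, and that probe set lay above the array median on all 8 arrays.

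The arrays formed 4 groups of 2. In the first experiment, ALL-SIL cells carried a lentiviral TCRα/β-GFP vector and were kept without co-culture (no TCR activation) or grown for 48 h on OP9-DL1 (TCR activation), mouse stromal cells made to display DL1, which activates Notch. In the second experiment, ALL-SIL cells were selected in puromycin after receiving a hairpin against TLX1 (shRNA TLX1) or the matching control hairpin vector (shRNA control). The groups model 1 cell line, 1 TCR vector and 1 hairpin. Because the control of the first experiment had no stroma, TCR engagement and contact with OP9-DL1 cells cannot be told apart. Whether both groups of that experiment held the same cell population was not tested. The labels do not say whether the replicates were separate cultures. The p-values therefore rest on array-to-array spread that may be only technical.

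ATF4 is a transcription factor whose protein is made when the translation factor eIF2α is phosphorylated, by GCN2 on amino acid shortage or by PERK on stress of the endoplasmic reticulum. With partners of the C/EBP family it binds composite elements near genes of amino acid synthesis, amino acid uptake and tRNA charging. Asparaginase, a drug used against lymphoblastic leukemia, depletes asparagine, which the target gene ASNS lets cells make. Arrays measure RNA and not the translation step that controls ATF4 itself.

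In the TCR experiment, replicate arrays correlated at r = 0.996 to 0.998 over the 13102 genes. In the hairpin experiment the shRNA control arrays correlated at 0.976 with each other, and array 2 of that group correlated at 0.974 to 0.980 with the other 3 arrays. Array 1 of the shRNA control correlated at 0.987 to 0.992 with the shRNA TLX1 arrays, so shRNA control array 2 stood apart from its own group, and results that rest on it are given with and without it. The TLX1 transcript was at 8.66 and 8.27 on the log2 scale with the control hairpin and at 7.98 and 7.88 with the TLX1 hairpin, and these groups did not overlap. With the TLX1 hairpin the transcript still lay above the array medians of 5.29 to 5.30, so its reduction was partial. All 14 T-lineage markers lay above the median on every array. Actin 3′ minus 5′ signal, a measure of RNA integrity, was 2.30 to 2.71 in the TCR experiment and 0.57 to 0.83 in the hairpin experiment, so levels are compared within experiments.

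The binding element known for ATF4 with C/EBP partners has the core TGATGNAA, which was searched on both strands in RefSeq promoter windows (GRCh38.p14) from 250 bases before to 50 after each gene's start. Windows were held for 33 of the 39 genes; SHMT2, PSPH, LARS1, YARS1, SLC7A11 and VARS1 had none. The core was in 13 of the 33 windows (39.4%) and in 1217 of 27305 windows of all genes (4.46%). It was in 7 of 14 synthetase windows (50.0%) and in 6 of 19 windows of the other genes (31.6%). A match is a description of these letters and not of a bound site. The genes were listed for their known link to ATF4, so their higher share is no result of these arrays. The sequences below show how the same core stands on either strand before the starts of synthetases and of other targets. They are written 5′ to 3′ on the gene's strand, with the core or its reverse complement in capitals.
AARS1, chr16:70289666-70289713, minus strand: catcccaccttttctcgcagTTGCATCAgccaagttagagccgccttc
GARS1, chr7:30594825-30594872, plus strand: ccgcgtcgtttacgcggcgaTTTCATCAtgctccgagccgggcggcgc
IARS1, chr9:92293698-92293730, minus strand: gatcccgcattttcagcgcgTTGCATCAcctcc
ASNS, chr7:97872449-97872496, minus strand: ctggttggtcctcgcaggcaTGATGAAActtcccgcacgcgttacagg
CEBPG, chr19:33374051-33374098, plus strand: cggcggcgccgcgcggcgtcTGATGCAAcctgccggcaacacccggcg
CHAC1, chr15:40953242-40953289, plus strand: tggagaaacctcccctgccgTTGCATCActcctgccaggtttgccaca
ATF3, chr1:212565196-212565243, plus strand: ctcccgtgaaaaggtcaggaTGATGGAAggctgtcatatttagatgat
Counted from the gene's start, the first base of the match was at -187 in AARS1, -68 in ASNS, -42 in CEBPG and -33 in GARS1. The windows of TRIB3, DDIT3 and PSAT1 held no match to these letters.

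On co-culture, AARS1 and TRIB3 rose, and the other 33 genes did not pass the test. In bulk RNA, a change in the number of cells of a type and a change in RNA per cell cannot be told apart. The 2 genes were 2 of 35 tested, beside 0.618% of all 13102 genes (limma, 1 model of all 4 groups, adjusted p under 0.05). At an unadjusted p under 0.05, 4 of the 35 were higher and 0 lower, beside 522 higher and 450 lower of all 13102 genes.

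AARS1, which charges tRNA with alanine, was at 7.53 and 7.53 on the log2 scale without co-culture and at 9.002 and 9.03 after TCR activation. Both activated arrays lay far above both controls, and the replicates of each group were nearly equal. The change was 1.48 (SE 0.11, 95% interval 1.22 to 1.74, limma adjusted p = 0.00105). It passed in each of the 8 fits that left out 1 array, with adjusted p from 4.31e-04 to 0.0266.

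VARS1, KARS1 and WARS1, which charge valine, lysine and tryptophan, also lay higher on both activated arrays, by much smaller amounts. VARS1 was at 7.90 and 7.83 without and at 8.33 and 8.33 with co-culture (change 0.46, adjusted p = 0.620). KARS1 was at 12.003 and 11.97 against 12.33 and 12.39 (change 0.37, adjusted p = 0.516). WARS1 was at 8.99 and 8.87 against 9.31 and 9.26 (change 0.35, adjusted p = 0.849). None of these groups overlapped, yet none passed in the model that took its spread from all 8 arrays. In a limma fit of only the 4 arrays of the TCR experiment, whose replicates were closer, VARS1 (adjusted p = 0.0232), KARS1 (0.0341) and WARS1 (0.0483) passed along with AARS1 and TRIB3. That fit passed 5 of the 35 genes as higher and 0 as lower, beside 3.56% of all genes as higher and 3.05% as lower. The other kept VARS1 probe set differed by 0.02 between the groups.

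SARS1, GARS1 and CARS1, which charge serine, glycine and cysteine, did not pass in either fit. SARS1 was at 9.59 and 9.72 without and at 9.77 and 9.85 with co-culture, close together but without overlap. GARS1 was at 10.74 and 11.12 without and at 11.01 and 11.04 with co-culture, so its activated arrays lay between its controls. CARS1 was at 10.66 and 10.97 without and at 10.57 and 10.62 with co-culture, the lowest of the synthetase changes at -0.21. Of the synthetases not yet named, RARS1, HARS1 and LARS1 (arginine, histidine and leucine) differed by 0.29, 0.25 and 0.20. NARS1 and EPRS1 (asparagine, and glutamate with proline) differed by 0.12 and 0.11, and YARS1, TARS1 and IARS1 (tyrosine, threonine and isoleucine) by -0.01, -0.08 and -0.11. None of these 8 passed in either fit. Over the 15 synthetases the median change was 0.15, with 11 higher by sign and a range from -0.21 to 1.48. Over all genes the median was 0.02, with 55.0% higher by sign. Both activated arrays lay above both controls for 10 of the 15, below for 3 and overlapping for 2, beside 32.0% above and 25.4% below over all genes.

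**Figure D1:**
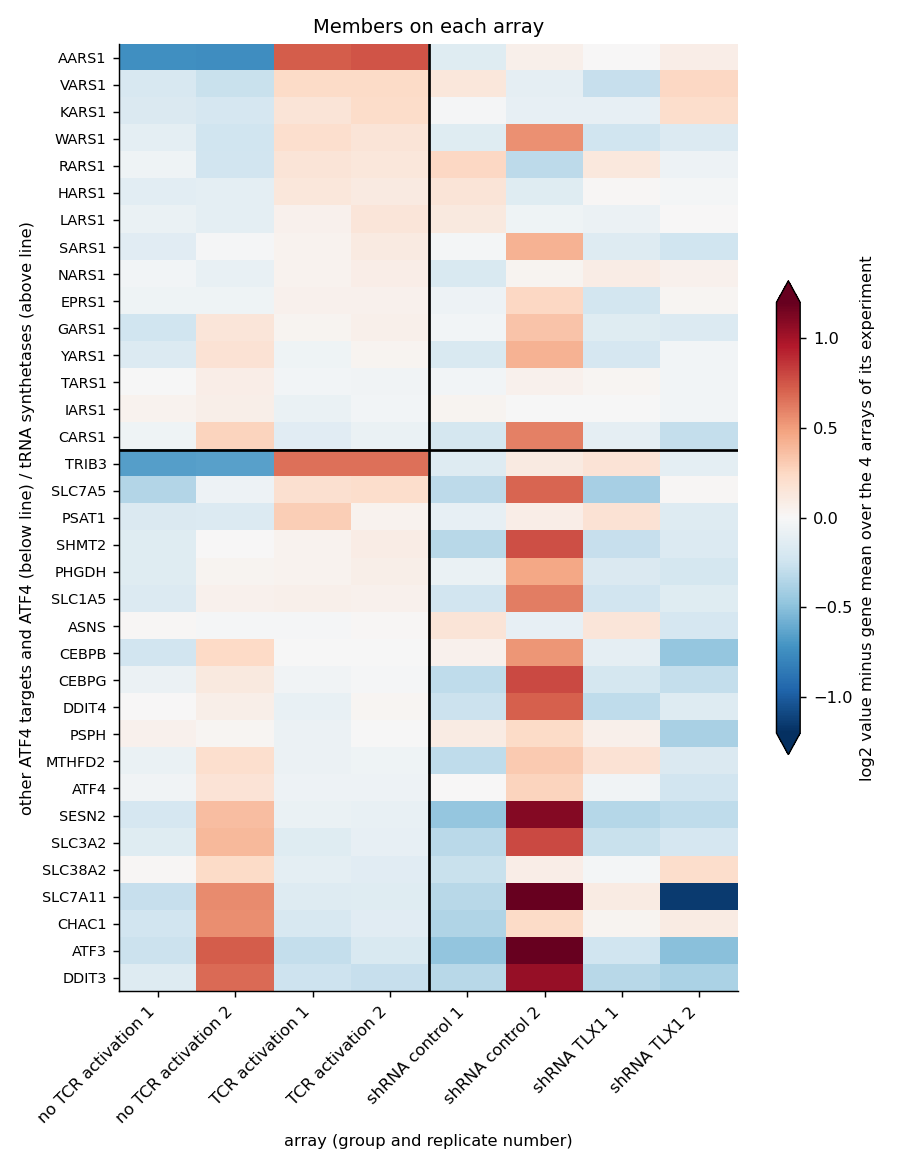
Log2 value of the 35 tested genes on each array (columns) minus the gene's mean over the 4 arrays of its experiment, with synthetases above the horizontal line and ATF4 with its other targets below it, each ordered by the TCR change. Only AARS1 and TRIB3 separate deeply into low and high groups on the left, and many targets are highest on no TCR activation 2 and shRNA control 2.

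Among transcription factors of the response, none passed. ATF4 was at 11.78 and 11.98 without and at 11.75 and 11.76 with co-culture, a change of -0.12 (adjusted p = 0.966). ATF3, a stress-induced factor downstream of ATF4, was at 7.51 and 8.49 without and at 7.49 and 7.59 with co-culture. DDIT3, which encodes the pro-apoptotic factor CHOP, was at 8.09 and 8.92 without and at 7.99 and 7.96 with co-culture. In all 3 genes, array 2 without co-culture was the highest of the 4. The gap between the control arrays of ATF3 and DDIT3 was larger than the change between groups (-0.46 and -0.53, adjusted p = 0.966 and 0.935). CEBPB and CEBPG, C/EBP partners of ATF4, differed by -0.01 and -0.05.

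TRIB3, a pseudokinase induced by ATF4 and DDIT3 that feeds back on them, was at 7.80 and 7.81 without co-culture and at 9.13 and 9.12 after TCR activation. As for AARS1, the groups were far apart and the replicates nearly equal. The change was 1.32 (SE 0.14, 95% interval 1.00 to 1.64, limma adjusted p = 0.00578). The call was lost when any 1 of the 4 arrays of the TCR experiment was left out, while the change stayed between 1.31 and 1.32. The highest adjusted p, 0.0993, came without array 1 of TCR activation. Without both control arrays numbered 2 it was 0.0678. The other TRIB3 probe set differed from this one by the same 0.0887 on every array and is no second measurement.

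Enzymes of amino acid synthesis did not pass by the probe set that represented them. ASNS was at 7.68 and 7.65 without and at 7.65 and 7.67 with co-culture, a difference of -0.0045 with a 95% interval from -0.34 to 0.33. PSAT1, an aminotransferase of serine synthesis, was at 5.76 and 5.77 without and at 6.23 and 5.98 with co-culture by the probe set with the highest mean (change 0.34, adjusted p = 0.695). PHGDH and PSPH, the other enzymes of serine synthesis, differed by 0.11 and -0.08. SHMT2 and MTHFD2, which move one-carbon units in mitochondria, differed by 0.14 and -0.12.

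The second PSAT1 probe set gave another picture and is described after its values were seen. It was at 4.44 and 4.29 without co-culture and at 7.05 and 7.02 after TCR activation, with the hairpin arrays at 2.83 to 3.55. Only the activated arrays stood above the array median, so the probe set was kept through the group where it was high. Its group means differed by 2.67, given as a description with no test, and its low values are imprecise. The difference was 2.33 larger than that of the other PSAT1 probe set, and of the 19 genes with several kept probe sets it was the only 1 with a difference over 0.5 in this comparison.

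Transporters and stress regulators did not pass either. SLC7A5, the light chain of the large neutral amino acid transporter, was at 9.90 and 10.20 without and at 10.45 and 10.47 with co-culture, without overlap (change 0.41, adjusted p = 0.928). SLC7A11, the cystine transporter chain, was at 8.12 and 8.97 without and at 8.25 and 8.26 with co-culture. CHAC1, which degrades glutathione, was at 6.70 and 7.48 without and at 6.73 and 6.79 with co-culture. In SLC7A11 and CHAC1 the activated arrays lay between the controls, near array 1. SESN2, which senses leucine and restrains mTORC1, had the same order, at 7.23 and 7.80 without and at 7.35 and 7.34 with co-culture. SLC3A2, SLC1A5 and SLC38A2, further amino acid carriers, differed by -0.24, 0.11 and -0.25. DDIT4, an inhibitor of mTORC1 induced by stress, differed by -0.07. Over the 20 genes the median change was -0.07, with 6 higher by sign and a range from -0.53 to 1.32. Without array 2 of no TCR activation the median was 0.053, with 14 of 20 higher by sign, so this direction rested on that array. Both activated arrays lay above both controls for 5 of 20, below for 4 and overlapping for 11, beside the same 32.0% above and 25.4% below over all genes.

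Related gene groups gave no call in the model of all groups. Of mitochondrial synthetases, 0 of 15 tested passed, with a median of 0.17 and 14 higher by sign, and 0 of 3 passed among other cytosolic synthetase genes and their scaffold (median 0.18). Of eIF2α kinases and regulators 0 of 14 passed (median 0.06), of further ATF4 pathway genes 0 of 15 (0.08), and of the other arms of the unfolded protein response 0 of 14 (0.13). At an unadjusted p under 0.05 these 5 lists held 2, 1, 0, 2 and 2 higher genes and 0, 0, 1, 0 and 1 lower ones, in the order given. The fit of the TCR arrays alone passed, as higher, 1 of the 15 mitochondrial synthetases (EARS2, 0.51), 1 of the 3 cytosolic genes (FARSB, 0.32) and 1 of the 14 eIF2α regulators (EIF2S1, 0.33). It also passed 2 of the 15 further ATF4 pathway genes (ATF5, 0.71, and BCAT1, 0.52) and 1 of the 14 genes of the other arms (HSPA5, 0.40), beside 3.56% of all genes as higher and 0 of these lists as lower. EARS2 is the mitochondrial glutamyl synthetase, FARSB a subunit of the phenylalanyl synthetase, EIF2S1 is eIF2α itself, ATF5 a factor related to ATF4, BCAT1 an aminotransferase of branched-chain amino acids and HSPA5 the chaperone BiP.

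Other differences ran beside the rise of AARS1 and TRIB3. The ribonuclease gene RNASE2, a granulocyte granule marker, was at 3.87 and 4.01 without and at 9.01 and 8.97 with co-culture. Over the 12 granule markers with a probe set, dim ones included, the mean level was 4.96 to 5.01 without and 6.31 to 6.34 with co-culture. Both activated arrays lay above both controls for 7 of the 12 and below for 1, the granule peroxidase MPO, at 8.69 and 8.69 without and at 7.82 and 8.13 with co-culture. Some of these markers, RNASE2 among them, stood above the array median only after TCR activation, so no count of those that passed is given. Over 10 general myeloid markers the mean level was 4.70 to 4.75 without and 5.58 to 5.62 with co-culture, with 7 above and 0 below. Over 15 fibroblast and stromal markers it was 5.88 to 6.14 without and 5.79 to 6.08 with co-culture, with 3 above and 1 below. Of 14 T-lineage markers 0 passed in the model of all groups (median -0.02). The fit of the TCR arrays alone passed 0 of the 14 as higher and 2 as lower, beside 3.56% and 3.05% of all genes. Both activated arrays lay above both controls for 4 of the 14 and below for 5. In the same model, 6 genes of chromosome Y passed, beside 0.618% of all genes in either direction. Their median change was -4.37, a size that rests in part on choosing genes that passed. How many chromosome Y genes were tested was not counted, so their share is not given. Chromosome Y genes that did not pass are not described. The 10 tested genes nearest to AARS1 on chromosome 16 all lay higher, by 0.17 to 0.43 (median 0.28), and 0 passed. The 8 nearest to TRIB3 on chromosome 20 lay between -0.05 and 0.47. The part of these differences in the rise of AARS1 and TRIB3 was not tested.

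With the TLX1 hairpin, none of the 35 genes passed (limma, 0 of 35, beside 0.0916% of all genes). At an unadjusted p under 0.05, 0 were higher and 2 lower, beside 552 higher and 625 lower of all 13102 genes, and the fit of the hairpin arrays alone had 0 at that level. By sign, 27 of the 35 lay lower. The median was -0.03 over the synthetases and -0.39 over the other 20 genes, against -0.0016 over all genes. Both hairpin arrays lay above both controls for 1 synthetase and below for 3 of 15, and above for 0 and below for 4 of the other 20, beside 14.1% above and 14.6% below over all genes.

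The lower median of the 20 other genes rested on shRNA control array 2. SLC7A11 was at 7.40 and 9.11 with the control hairpin and at 7.82 and 6.58 with the TLX1 hairpin (change -1.05, SE 0.59, adjusted p = 0.663). ATF3 was at 6.15 and 7.84 against 6.39 and 6.13, and DDIT3 at 7.34 and 8.72 against 7.35 and 7.29. SESN2 was at 6.91 and 8.47 against 7.03 and 7.07. In ATF3, DDIT3 and SESN2, control array 1 lay close to both TLX1 hairpin arrays and control array 2 far above all 3. SLC7A5 showed it as well, at 9.29 and 10.30 against 9.21 and 9.61. CARS1 was at 9.54 and 10.36 against 9.65 and 9.46, and WARS1 at 9.01 and 9.70 against 8.91 and 8.99.

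ATF4 itself was at 11.83 and 12.09 with the control hairpin and at 11.78 and 11.60 with the TLX1 hairpin, lower on both (change -0.27, adjusted p = 0.614). SARS1, at 9.50 and 9.94 against 9.36 and 9.28, and GARS1, at 10.98 and 11.36 against 10.88 and 10.85, had the same order. AARS1 was at 8.43 and 8.64 against 8.59 and 8.66 (change 0.09, 95% interval -0.17 to 0.35). TRIB3 was at 8.40 and 8.66 against 8.73 and 8.45 (change 0.05, 95% interval -0.27 to 0.37). The groups of AARS1 and TRIB3 overlapped, as did those of ASNS, at 7.37 and 7.12 against 7.36 and 7.02. CHAC1, at 5.34 and 5.92 against 5.73 and 5.79, overlapped too. VARS1, at 7.72 and 7.47 against 7.30 and 7.83, and KARS1, at 12.14 and 12.05 against 12.06 and 12.36, varied more within the TLX1 hairpin group than between groups.

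Without shRNA control array 2, the median of the 20 other ATF4 genes was 0.07 in place of -0.39, with 13 higher and 7 lower by sign, and 0 of 35 genes passed. The synthetase median was -0.05 in place of -0.03, and -0.020 without shRNA control array 1. The median of the 20 other ATF4 genes depended on which control array was left out. Without shRNA control array 1, it was -0.81, and 13 of the 35 genes passed as lower, 10 of them other ATF4 genes and 3 synthetases, beside 6.63% of all genes as lower. These were ATF3, CEBPG, DDIT3, DDIT4, PHGDH, SESN2, SHMT2, SLC1A5, SLC3A2 and SLC7A5, with CARS1, SARS1 and WARS1. ATF4, DDIT3 and SLC7A11 lay lower with either control array, although the difference of DDIT3 was -0.02 and that of SLC7A11 -0.19 without control array 2. They were not the only ones. Without control array 2 the difference was -0.33 for CEBPB, -0.18 for SARS1, -0.12 for GARS1 and -0.11 for PHGDH. Of the synthetases, 6 lay higher and 9 lower by sign there. With all arrays the change of CEBPB was -0.57 (limma adjusted p = 0.492).

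The changes of AARS1 in the 2 experiments differed. The TCR change minus the hairpin change was 1.40 (SE 0.16, 95% interval 1.03 to 1.77, limma adjusted p = 0.0158), 1 of 35 genes, beside 0.382% of all genes. It passed without either shRNA control array. The call was lost without any of the other 6 arrays, while the difference stayed between 1.29 and 1.504 in all 8 fits. The highest adjusted p, 0.147, came without array 1 of TCR activation. Without both control arrays numbered 2 the difference was 1.29 and the adjusted p 0.126. For TRIB3 the difference was 1.26 (adjusted p = 0.0556), just outside the threshold.

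Many ATF4 targets differed between the replicates of the control groups. For each gene the replicate gap was taken as array 2 minus array 1. Over the 20 other ATF4 genes its median was 0.22 without TCR activation, with 18 of 20 higher on array 2 (51.9% of all genes), and 0.73 with the control hairpin, with 19 of 20 higher on array 2 (55.7% of all genes). The gap exceeded 0.5 for 6 of 20 without TCR activation, beside 0.817% of all genes, and for 13 of 20 with the control hairpin, beside 10.4% of all genes. After TCR activation and with the TLX1 hairpin the median gaps were 0.02 and -0.06. The 10 tested fibroblast and stromal markers had median gaps of 0.25 without TCR activation and 0.14 with the control hairpin, 7 of 10 higher on array 2 in each. Their median gap was also 0.14 with the TLX1 hairpin (7 of 10), and it was -0.24 after TCR activation (1 of 10). The part of these markers in the gaps of the ATF4 targets was not tested. For the 15 synthetases the median gaps were 0.0044, 0.031, 0.21 and -0.023 in the order no TCR activation, TCR activation, shRNA control and shRNA TLX1.

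In 6 of the 20 genes the gap exceeded 0.5 in both control groups, which share no array: ATF3, CHAC1, DDIT3, SESN2, SLC3A2 and SLC7A11. The other 7 genes over 0.5 with the control hairpin were under it without TCR activation. ATF3 differed by 0.98 without TCR activation and by 1.68 with the control hairpin, DDIT3 by 0.83 and 1.38, SLC7A11 by 0.85 and 1.71, and SESN2 by 0.57 and 1.56. CHAC1, at 0.78 and 0.58, and SLC3A2, the heavy chain that pairs with SLC7A5 and SLC7A11, at 0.53 and 1.12, followed. SHMT2 and CEBPG differed by 0.15 and 0.19 without TCR activation and by 1.11 and 1.10 with the control hairpin. The genes that rose on co-culture had small gaps, -0.0036 and 0.21 for AARS1 and 0.01 and 0.26 for TRIB3, and ASNS was slightly lower on array 2 of both groups. Across genes, which are not independent replicates, the gaps of the control groups correlated at r = 0.73 over the 20 other ATF4 genes, 0.62 over the 15 synthetases and 0.08 over all 13102 genes. Over the 15 further ATF4 pathway genes r was 0.85, over 15 mitochondrial synthetases 0.06 and over 14 genes of the other unfolded protein response arms 0.01. The gaps of the further ATF4 pathway genes were small without TCR activation, with a median of 0.04 and 0 of 15 over 0.5. With the control hairpin their median gap was 0.35, with 5 of 15 over 0.5. In the TLX1 hairpin group SLC7A11 ran the other way, lower on array 2 by a gap of -1.24.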

How the data were processed

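Values of 8 Affymetrix arrays were deposited on the log2 scale. The authors used RMA and affy in R 2.9.0, per the submitters' processing notes. Array medians were 5.29 to 5.30, which hides any shift common to a whole array, and the number of arrays limits the precision. Groups came from the sample titles. Of 54675 probe sets, 41097 had 1 gene symbol in the platform annotation, 1801 several and 11777 none, and only the first kind was used. Probe sets above the array median on at least 2 of the 8 arrays were kept (30816), and the one with the highest mean stood for its gene.

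limma 3.58.1 in R 4.3.3 fitted the 4 group means in 1 model (residual degrees of freedom 4), with Benjamini-Hochberg adjustment over 13102 genes and a threshold of 0.05. The fit was tested on simulated data. A fit of only the TCR arrays is given beside it, because the experiments differed in spread. Values on every array are given for ATF4, DDIT3, ATF3, TRIB3, CHAC1 and ASNS, for each gene past the threshold in either fit, and for the 4 genes of each class with the largest absolute change in each comparison. SHMT2, CEBPG and SLC3A2 gaps and the second PSAT1 probe set were chosen after their values were seen. The genes and all lists were chosen with earlier results of these data known. Alternatives were the scaling, the filter, the probe set rule, array weights, a trended prior, a replicate block and leaving out arrays. No batch label was used here.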

Additional observations from a re-analysis of the deposited data

Results flagged for a closer look

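The response of AARS1, the alanyl synthetase, differed between the experiments by a test of the difference itself: its TCR change minus its TLX1 hairpin change was 1.40 on the log2 scale (limma adjusted p = 0.0158). It was higher on both arrays after TCR activation, while its hairpin groups overlapped. The call was lost in 6 of the 8 fits that left out 1 array, while the difference stayed between 1.29 and 1.504. Without both control arrays numbered 2 it was 1.29, with an adjusted p of 0.126. The rise ran beside the granulocyte granule markers and the chromosome Y genes that passed, and their part in it was not tested.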

How the results depend on the processing

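The TCR count of 2 genes was 6 with array weights, 5 in the fit of only the TCR arrays, 1 without both control arrays numbered 2 (added after seeing the data) and 1 to 2 with 1 array left out. The hairpin count of 0 became 0 to 13 with 1 array left out. The count of 1 for the difference was 2 with array weights, 3 with the mean of kept probe sets, 0 without both control arrays numbered 2, and 0 to 11 with 1 array left out. With 1 array left out, a lone array is assumed to vary like the other groups. With the mean of kept probe sets the TCR count was 3 as well. There and in the difference, the 3 genes were AARS1, TRIB3 and PSAT1. The mean for PSAT1 held its second probe set, kept through the group where it was high, so neither PSAT1 call is a result. The synthetase median in the TCR comparison was 0.19 with the mean of kept probe sets, 0.20 without both control arrays numbered 2 and 0.12 to 0.20 with 1 array left out. In the hairpin comparison it was -0.17 with the mean of kept probe sets and -0.11 to -0.020 with 1 array left out. The median of the other ATF4 genes in the hairpin comparison was 0.069 without both control arrays numbered 2 and -0.81 to 0.069 with 1 array left out, and in the TCR comparison -0.19 to 0.053. The 9-letter motif TGATGNAAT was in 2 of the 33 windows (6.06%), beside 1.22% of all windows.

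Without both control arrays numbered 2, the TCR change reversed for ATF3 (0.027), CHAC1 (0.059), SLC7A11 (0.13), SESN2 (0.12), CEBPB (0.23), CEBPG (0.047), MTHFD2 (0.023), SLC3A2 (0.026) and YARS1 (0.15), and the hairpin change for CARS1 (0.015), ATF3 (0.11), SLC7A5 (0.12), SESN2 (0.14), CEBPG (0.053), DDIT4 (0.023), MTHFD2 (0.30), SHMT2 (0.12), SLC1A5 (0.045), SLC3A2 (0.086), TARS1 (0.032), YARS1 (0.063) and RARS1 (-0.21). With quantiles within each experiment, the hairpin change of HARS1 was 0.0006. With the mean of kept probe sets, the hairpin change of PSAT1 was -0.076 and the TCR changes of CEBPG and PSPH were 0.032 and 0.016. Ranges with 1 array left out crossed 0 in the TCR comparison for GARS1 (-0.091 to 0.29), ATF3 (-0.96 to 0.027), CHAC1 (-0.72 to 0.059), ASNS (-0.020 to 0.011), SLC7A11 (-0.72 to 0.13), SESN2 (-0.45 to 0.12), CEBPB (-0.24 to 0.23), CEBPG (-0.15 to 0.047), MTHFD2 (-0.26 to 0.023), SLC3A2 (-0.51 to 0.026) and YARS1 (-0.18 to 0.15). In the hairpin comparison they crossed 0 for AARS1 (-0.020 to 0.19), VARS1 (-0.29 to 0.24), KARS1 (-0.037 to 0.26), CARS1 (-0.81 to 0.015), ATF3 (-1.58 to 0.11), TRIB3 (-0.087 to 0.20), CHAC1 (-0.16 to 0.42), ASNS (-0.23 to 0.11), SLC7A5 (-0.90 to 0.12), SESN2 (-1.42 to 0.14), PSAT1 (-0.14 to 0.18), CEBPG (-1.04 to 0.053), DDIT4 (-0.95 to 0.023), HARS1 (-0.16 to 0.14), LARS1 (-0.15 to 0.016), MTHFD2 (-0.32 to 0.30), RARS1 (-0.21 to 0.35), SHMT2 (-0.998 to 0.12), SLC1A5 (-0.80 to 0.045), SLC3A2 (-1.03 to 0.086), TARS1 (-0.052 to 0.032) and YARS1 (-0.53 to 0.063). The cause was not tested.

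Same-numbered arrays deviated together at r = -0.14 in the TCR and 0.35 in the hairpin experiment over 13102 genes, and they share only a number. With the replicate block, 2 of the 35 genes passed in the TCR comparison, 0 in the hairpin comparison and 1 in the difference, and 73 of all genes passed in the TCR comparison. With the crossed pairing 2 of the 35 and 25 of all genes passed there. With each scaling (arrays centred, quantiles within each experiment) AARS1 and TRIB3 passed, and the median gap of the other ATF4 genes stayed at 0.22 to 0.23 without TCR activation and 0.71 to 0.73 with the control hairpin.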
